A study of Mus musculus with 12 samples.

Results

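The genes of fibroblast growth factor (FGF) signalling were followed in sorted limb bud mesenchyme of mouse embryos at stage E14.5. The list held 34 genes: FGF ligands, their receptors, and the Sprouty, Spred, Dusp, Etv, Il17rd and Flrt genes that modulate or report the signal. Members were found by matching symbols to the Ensembl identifiers of the deposited table, which lists 54532 genes. Of the 34 listed genes 33 were matched, and *Spry3* was not analysed here. Every embryo carried the Prrx1-Cre driver, which recombines floxed alleles in limb bud mesenchyme, inherited from the father. From the mother it carried 1 of 2 Rosa26 alleles opened by that Cre. In the iCreb5 group the allele expressed an HA-tagged bovine Creb5, a CREB-family transcription factor, joined through an ires element to GFP. In the tdTomato group it expressed the red fluorescent protein tdTomato, and these cells served as controls.

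There were 6 iCreb5 and 6 tdTomato libraries from fluorescence-sorted cells. The labels place 3 libraries of each group in litter 3 and 1 of each in litters 4, 5 and 6, whereas the series' design text speaks of 6 litters. A separate batch label goes with every litter, and the effects of litter and batch cannot be told apart. The sources do not say whether embryos were pooled for a library, and the p-values below reflect only how much these 12 libraries varied. Recovered depth ran from 9024162 to 53269417 reads per library, and 3 reads corresponded to between 1.48 and 8.38 units of the table, a limit that covers counting error only. *Creb5* itself was 1.57-fold higher in iCreb5 (2799 ± 214, SD, n = 6, against 1803 ± 299 in tdTomato), with no overlap between groups. The genome build named for the table is mouse, and the treatment of bovine transgene reads is not given in the sources used.

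The sorted cells of both groups expressed genes of loose mesenchyme and perichondrium: that list summed to 214829 to 318234 in iCreb5 and to 194852 to 358860 in tdTomato, and none of its 6 genes passed the test. Markers of neighbouring cell types differed between the groups. Of 15 cartilage genes 14 were lower in iCreb5, with a median log2 change of -1.55 over the list. The summed level of the cartilage list was 104942 to 146784 in iCreb5 and 211096 to 457289 in tdTomato. All 6 bone genes tested were lower too. All 10 leukocyte genes were higher in iCreb5 (median log2 change 2.94), and their summed level was 2114 to 10217 against 547 to 935, with *Ptprc* at 0 in 3 tdTomato libraries. Of 6 endothelial genes 4 were higher. Of 9 epidermal genes tested 1 was lower (*Krt8*), of 6 Schwann cell and melanoblast genes 1 was lower (*Sox10*), and of 5 neuron genes 1 was higher (*Isl1*) and 1 lower (*Stmn2*). None of the 8 skeletal muscle, 4 tendon or 4 red cell genes tested passed. In bulk samples, fewer cells of a type and less RNA per cell cannot be told apart. The part that these cell types play in the FGF values below was not tested.

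FGFs are secreted proteins that bind receptor tyrosine kinases together with heparan sulfate on the cell surface, and the bound receptors signal through RAS and ERK. The pathway induces its own restraints: Sprouty and Spred proteins act on the RAS to ERK cascade, Dusp phosphatases remove phosphate from ERK and related kinases, and the Etv transcription factors are induced targets. In the limb, Fgf8 from the apical ectodermal ridge and Fgf10 from the mesenchyme sustain outgrowth. Later, Fgf18 from perichondrium and Fgfr3 in chondrocytes restrain growth of the cartilage.

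Of the 33 matched genes 32 passed the filter, with 6 or more libraries at a value of 10 or higher, and were tested among 16733 genes. Levels are normalised read counts as deposited, means are given ± SD (n = 6 per group), and a change is iCreb5 minus tdTomato on the log2(value + 1) scale with its SE. A gene counts as changed where limma's Benjamini-Hochberg adjusted p over all genes tested lay under 0.05. In iCreb5, 3 members rose (*Fgf18*, *Dusp4* and *Etv1*), 4 fell (*Fgfr3*, *Fgfr4*, *Fgfrl1* and *Spry1*) and 24 did not pass the test. The fit also called *Fgf8* lower, the 5th such member, but *Fgf8* met the filter only through the tdTomato libraries, where it is high, so its call supports nothing. Without *Fgf8*, the members that rose are 9.68% of the 31 others, where 3.87% of all genes tested rose. Those that fell are 12.9%, where 2.85% of all genes fell. The figures over all genes tested keep any gene that, like *Fgf8*, met the filter through 1 group only. The median log2 change was 0.02 over these 31 members and 0.00384 over all genes tested. Of all genes called, 57.6% were higher in iCreb5, and 67.7% were when libraries were rescaled to equal totals, a setting under which 3 members rose and 4 fell, *Fgf8* among them and *Fgfr4* not (4.77% and 2.28% of all genes). The 6 libraries of each group did not overlap for *Fgf18* on the higher side, where 2.83% of all genes tested were so separated. On the lower side they did not overlap for *Fgfr3*, *Fgfrl1* and *Spry1*, and for *Fgf8*, with 1.92% of all genes so separated.

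**Figure D1:**
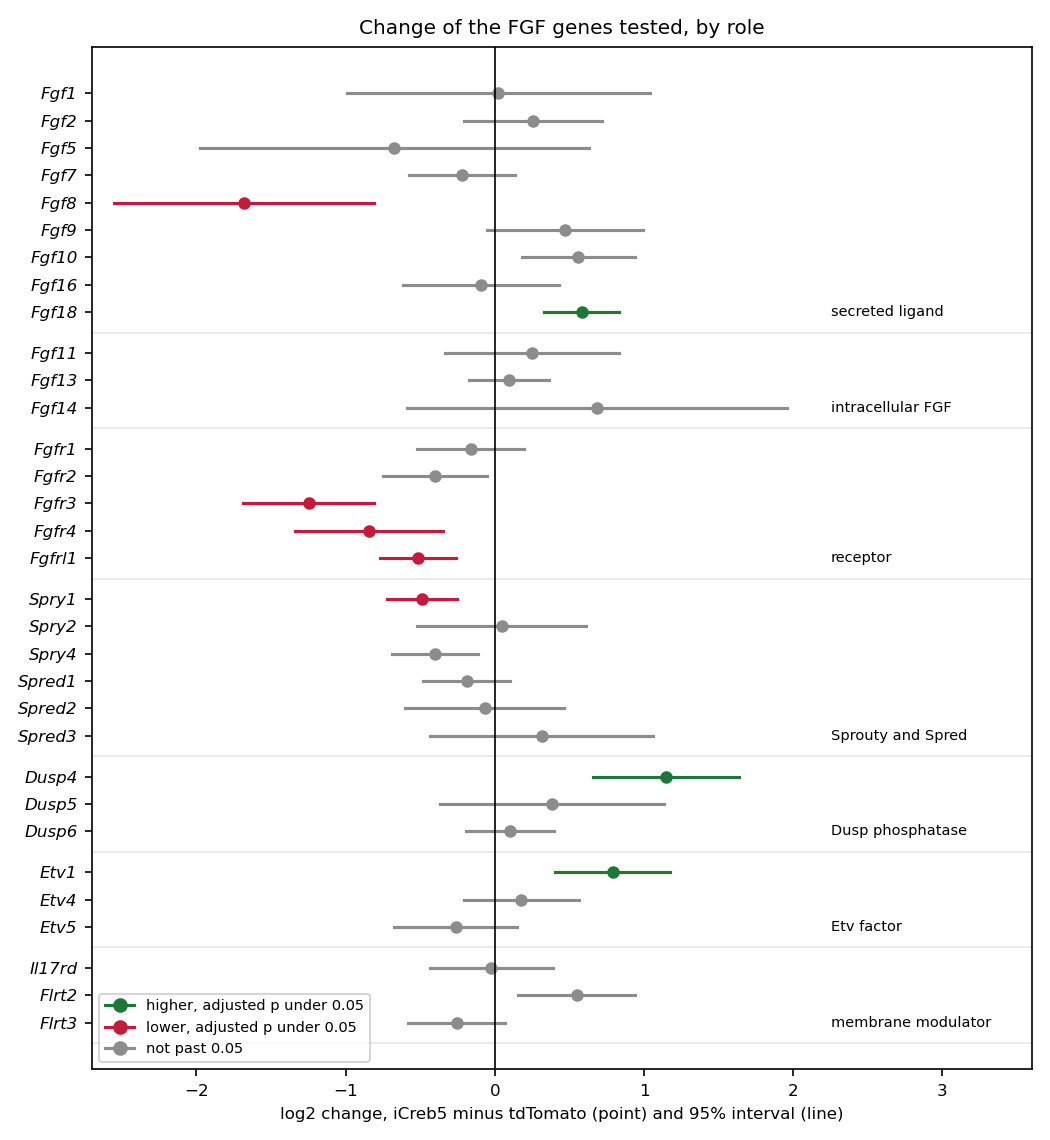
Change of the 32 FGF genes tested, grouped by role. Points are log2 changes, iCreb5 minus tdTomato, and lines are 95% intervals from the limma fit. The 3 green genes (*Fgf18*, *Dusp4*, *Etv1*) were called higher and the 5 red genes lower, 3 of them receptors, and *Fgf8* met the filter only through tdTomato.

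With litter as a term in the same fit, 5 members were called higher and 6 lower, *Fgf8* included, against 5.13% and 4.35% of all genes tested. The members gained were *Fgf10* (limma adjusted p 0.020 with the block, 0.0778 without), *Flrt2* (0.0084 with, 0.0994 without) and *Spry4* (0.021 with, 0.102 without), and the 8 others stayed called. With litter 3 averaged to 1 value a group in the same design, *Fgf10* (adjusted p 0.0714) and *Spry4* (0.0896) did not pass, *Flrt2* did (0.0237), *Fgfr2* was called lower (0.0469) and *Fgf8* was not called (0.0890). Without the iCreb5 library of litter 5, 6 members were called higher, *Fgf9*, *Fgf10* and *Flrt2* being added, and 5 lower, against 4.21% and 3.05% of all genes. Without the tdTomato library of litter 5 *Spry4* passed the test (limma adjusted p 0.0432).

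*Fgf18*, a ligand made by perichondrium and a regulator of chondrocytes, lies on chr11:33117430-33147400 (mm10). Its level in the iCreb5 libraries was 1158, 1662 and 1202 in litter 3, 1627 in litter 4, 1269 in litter 5 and 1494 in litter 6. In the tdTomato libraries it was 804, 978 and 995 in litter 3, then 961, 887 and 951 in litters 4, 5 and 6. Every iCreb5 library stood above every tdTomato library. *Fgf18* was 1.5-fold higher in iCreb5 (1402 ± 221 against 929 ± 71.6, log2 change 0.58 ± 0.12 SE, limma adjusted p 0.00595). In litter 3 alone the adjusted p was 0.152. Among the FGF ligands it had the highest level per kilobase of merged exons, 982 normalised reads over the 12 libraries.

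*Fgf8*, the ligand of the apical ectodermal ridge and on chr19:45736798-45742915, was at the low end of the table. In the iCreb5 libraries its level was 5.06, 4.6 and 9.11 in litter 3, 8.62 in litter 4, 6.79 in litter 5 and 7.40 in litter 6. In the tdTomato libraries it was 64.2, 12.4 and 19.2 in litter 3, then 23.0, 27.4 and 18.6. The groups did not overlap, and the high value of 64.2 came from the shallowest library. Recovered reads behind these values numbered 4 to 18 in iCreb5 and 14 to 25 in tdTomato. No iCreb5 library reached the filter value of 10, so *Fgf8* entered the test only through the tdTomato libraries. Its entry thus hung on its level in 1 group, so its fitted log2 change of -1.68 (SE 0.41) is a description. Its mean was 6.93 ± 1.83 in iCreb5 and 27.4 ± 18.7 in tdTomato. With no filter on low values the limma adjusted p was 0.0565, above the threshold. Among epidermal and ridge genes, *Krt8*, the 1 gene called of 9 tested, was 17.9 ± 8.25 in iCreb5 and 52.7 ± 20.2 in tdTomato. The 8 others were not called in either direction. *Sp6*, a ridge transcription factor, was under the filter, at 0 in iCreb5 3b and in tdTomato 3a, 3b, 5b and 6d. It reached 17.2 in iCreb5 and 33.1 in tdTomato. The summed epidermal list was 521 to 1371 in iCreb5 and 828 to 1372 in tdTomato, and its part in the *Fgf8* difference was not tested.

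The other secreted ligands did not pass the test. *Fgf10*, the mesenchymal ligand that signals to the ridge, ranged from 731 to 1529 in iCreb5 (median 1202) and from 612 to 977 in tdTomato (median 862). Its log2 change was 0.56 (95% interval 0.18 to 0.94), and the iCreb5 mean was the higher one in 4 of 4 litters. *Fgf7*, a mesenchymal ligand of epithelial receptor forms, ranged from 785 to 1347 (median 1009) against 862 to 1564 (median 1201). It had a log2 change of -0.22 (95% interval -0.58 to 0.13), negative in each litter, from -0.28 to -0.16. *Fgf9*, a ligand known from lung and skeletal development, ranged from 101 to 290 in iCreb5 and from 119 to 215 in tdTomato, with a log2 change of 0.47 (95% interval -0.06 to 1.0). Its lowest iCreb5 value, 101, was in litter 5, where the litter difference was -0.61. Litters 3, 4 and 6 had *Fgf9* differences of 0.59, 1.13 and 0.54.

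The remaining ligands were *Fgf1*, *Fgf2*, *Fgf5*, *Fgf16* and *Fgf20*. *Fgf2*, a broadly acting ligand, had a mean of 477 ± 121 in iCreb5 and 402 ± 121 in tdTomato, and *Fgf16*, a relative of *Fgf9*, had 87.2 ± 28.5 and 90.9 ± 20.2. *Fgf1*, which binds every FGF receptor, ranged from 24.3 to 126 in iCreb5 and from 14.3 to 78.2 in tdTomato. *Fgf5*, known for ending hair growth, ranged from 9.27 to 68.9 and from 10.4 to 132, and its 95% interval ran from -1.98 to 0.63. *Fgf20*, a relative of *Fgf9* and *Fgf16*, was under the filter and untested, with levels of 0 to 9.70 in iCreb5 and 0 to 10.1 in tdTomato and at most 14 reads in a library. None of these ligands separated the groups.

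The intracellular FGFs are relatives of the ligands that are not secreted and act on sodium channels and microtubules in neurons. *Fgf13* was the abundant one, with 856 ± 63.4 in iCreb5 and 808 ± 134 in tdTomato (log2 change 0.10, 95% interval -0.17 to 0.36). *Fgf11* had means of 90.8 ± 35.3 and 72.8 ± 17.8, and *Fgf14* had 17.7 ± 9.85 and 10.7 ± 6.33. None of the 3 passed the test, and all 3 overlapped between the groups.

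The receptors were the role with the most members called: 3 of 5 fell, none rose, and the median log2 change of the 5 was -0.51. Over all genes tested, 2.85% fell. The role was singled out after the calls were seen, and 1 of the 3, *Fgfr4*, lost its call in 12 of 26 other settings. *Fgfr3*, the receptor of proliferating chondrocytes and a brake on bone growth, lies on chr5:33721674-33737068. Its level in iCreb5 was 972, 828 and 1032 in litter 3, 1179 in litter 4, 771 in litter 5 and 900.4 in litter 6. In tdTomato it was 2055, 1315 and 3144 in litter 3, then 3735, 1862 and 2077. The highest iCreb5 library lay below the lowest tdTomato library, and the tdTomato libraries varied far more among themselves. *Fgfr3* was 2.38-fold lower in iCreb5 (947 ± 147 against 2365 ± 896, log2 change -1.25 ± 0.21 SE, limma adjusted p 0.00124). The differences within litters 3, 4, 5 and 6 were -1.12, -1.66, -1.27 and -1.21. In litter 3 alone, 3 libraries against 3, the adjusted p was 0.0555. The cartilage markers moved with it, and *Col2a1*, the main collagen of cartilage, was 58974 ± 11167 in iCreb5 and 139868 ± 52503 in tdTomato. The part of the cartilage difference in the *Fgfr3* value was not tested.

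*Fgfrl1*, a receptor-like protein that binds FGFs and lacks the kinase domain, lies on chr5:108692382-108706924. It stood at 3230, 3729 and 2878 in the iCreb5 libraries of litter 3 and at 3523, 3021 and 3460 in litters 4, 5 and 6. In tdTomato it stood at 3875, 5490 and 5829 in litter 3, then at 5077, 4019 and 4257. The groups did not overlap, though the highest iCreb5 and the lowest tdTomato library were close. *Fgfrl1* was 1.43-fold lower in iCreb5 (log2 change -0.51 ± 0.12 SE, limma adjusted p 0.0148). Its level per kilobase, 1449 over the 12 libraries, was above that of every other member.

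*Fgfr4*, a receptor best known from muscle and liver, lies on chr13:55152640-55168759. In iCreb5 it measured 269.7, 183 and 169 in litter 3, 255 in litter 4, 88.2 in litter 5 and 212 in litter 6. In tdTomato it measured 259.7, 394 and 348 in litter 3, then 344, 295 and 372. The iCreb5 library 3a overlapped the tdTomato library 3a, which was the only tdTomato value inside the iCreb5 range. *Fgfr4* was 1.79-fold lower in iCreb5 (log2 change -0.84 ± 0.23 SE, limma adjusted p 0.0401). The call was lost in 12 of 26 other settings, with an adjusted p up to 0.169. In 7 of these 1 library was left out: iCreb5 3b, 3c or 6, or tdTomato 3b, 3c, 4a or 6d. The skeletal muscle markers summed to 1310 to 3622 in iCreb5 and 1273 to 2965 in tdTomato, with 0 of 8 called. The part of muscle cells in the *Fgfr4* value was not tested.

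The main mesenchymal receptors did not pass the test. *Fgfr1* had the highest mean count of any member over the 12 libraries, 6142, ahead of *Flrt2* with 5129. It ran from 3848 to 7076 in iCreb5 (median 5907) and from 4026 to 7624 in tdTomato (median 6747), with a log2 change of -0.16 (95% interval -0.52 to 0.20). Litter 5 held the lowest *Fgfr1* value of both groups. *Fgfr2*, whose isoforms serve epithelium and skeletal condensations, ranged from 1797 to 3105 (median 2405) against 2224 to 4159 (median 3203). Its log2 change was -0.40 (95% interval -0.75 to -0.05, limma adjusted p 0.195), and the differences in the 4 litters ran from -0.48 to -0.31. All 5 receptor genes were lower in iCreb5 in 4 of 4 litters, and 3 of them passed the test. The share of all genes with the same sign in every litter was not computed.

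Set per kilobase of merged exons, the 5 receptor genes summed to 2198 ± 226 in iCreb5 (1782 to 2394) and to 3103 ± 509 in tdTomato (2411 to 3807), ranges that did not overlap. *Fgfrl1* held the largest share in each group, 54.4 ± 5.61% in iCreb5 and 55.2 ± 4.61% in tdTomato. *Fgfr1* followed with 26.5 ± 3.75% and 21.2 ± 2.93%. *Fgfr3* held 6.02 ± 0.651% in iCreb5 (5.08% to 6.88%) and 10.5 ± 2.94% in tdTomato (5.75% to 14.9%). *Fgfr2* held 8.99% to 12.6% in iCreb5 and 8.29% to 12.6% in tdTomato, and *Fgfr4* held 2.47 ± 0.658% and 3.09 ± 0.464%. These shares are descriptions, given without a test. Their order depends on the lengths of all annotated exons merged, 2782 bases for *Fgfrl1* and 9875 for *Fgfr1*. By mean count over the 12 libraries *Fgfr1* (6142) stood above *Fgfrl1* (4032).

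**Figure D2:**
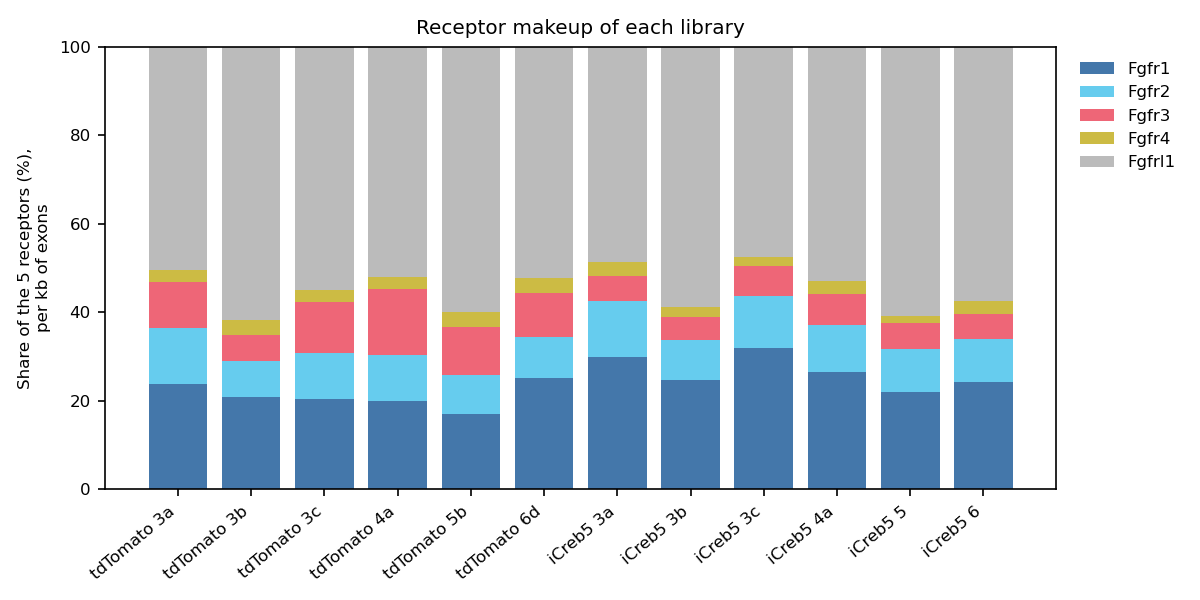
Share of each of the 5 receptor genes in their summed level per kilobase of merged exons, in percent, 1 bar per library. *Fgfr3* takes 5.75% to 14.9% in the 6 tdTomato bars and 5.08% to 6.88% in the 6 iCreb5 bars.

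Of the 6 Sprouty and Spred genes 1 fell and none rose. *Spry1*, an inhibitor of receptor tyrosine kinase signalling, lies on chr3:37639947-37644598. Its level in iCreb5 was 2242, 2966 and 2357 in litter 3, 2686 in litter 4, 2780 in litter 5 and 3322 in litter 6. In tdTomato it was 3384, 3848 and 4148 in litter 3, then 3864, 3405 and 4178. All iCreb5 libraries lay below all tdTomato libraries, by a small margin. *Spry1* was 1.40-fold lower in iCreb5 (2726 ± 397 against 3804 ± 346, log2 change -0.49 ± 0.11 SE, limma adjusted p 0.0124).

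*Spry4*, a relative of *Spry1*, ranged from 552 to 893 in iCreb5 (median 782) and from 793 to 1180 in tdTomato (median 1018). Its log2 change was -0.40 (95% interval -0.69 to -0.11), with the same sign in 4 of 4 litters. *Spry2* showed no such agreement: its level was 297 to 902 in iCreb5 and 299 to 793 in tdTomato. The *Spry2* difference was -0.55 in litter 3, 1.02 in litter 4, 0.01 in litter 5 and 0.89 in litter 6. *Spred1* ranged from 1622 to 2251 (median 2046) against 1733 to 2865 (median 2369), with a log2 change of -0.19 (95% interval -0.48 to 0.10). *Spred2* had means of 207 ± 82.4 and 212 ± 51.2, and *Spred3* had 66.3 ± 23.4 and 56.8 ± 25.8. All of these Spred ranges overlapped.

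Of the 3 Dusp genes 1 rose. *Dusp4*, a nuclear phosphatase that dephosphorylates ERK and related kinases, lies on chr8:34807297-34819894. Its level in iCreb5 was 305, 223 and 344 in litter 3, 269 in litter 4, 199 in litter 5 and 377 in litter 6. In tdTomato it was 81.0, 112 and 104 in litter 3, then 210.4, 128 and 152. The ranges overlapped: the tdTomato library of litter 4 stood above the iCreb5 library of litter 5. *Dusp4* was 2.22-fold higher in iCreb5 (286 ± 69.0 against 131 ± 45.5, log2 change 1.15 ± 0.23 SE, limma adjusted p 0.00517). The difference was 1.53 in litter 3 and 0.35, 0.64 and 1.30 in litters 4, 5 and 6. In litters 4 to 6 alone, fitted with litter as a term, the adjusted p was 0.141. The leukocyte and endothelial lists were higher in iCreb5 as well, and their part in the *Fgf18*, *Dusp4* and *Etv1* values was not tested.

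*Dusp6*, the cytoplasmic ERK phosphatase that is a standard readout of FGF signalling, ranged from 1661 to 2857 in iCreb5 (median 2156) and from 1735 to 2537 in tdTomato (median 1887). Its log2 change was 0.10, with a 95% interval of -0.19 to 0.40. The litters disagreed in sign, with -0.04 and -0.13 in litters 3 and 4 and 0.33 and 0.53 in litters 5 and 6. *Dusp5*, a nuclear ERK phosphatase, ranged from 195 to 780.3 in iCreb5 and from 143 to 512 in tdTomato, and its interval ran from -0.37 to 1.13.

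Of the 3 Etv factors 1 rose. *Etv1*, an ETS transcription factor induced by FGF signals, lies on chr12:38779380-38870484. Its level in iCreb5 was 1461, 1460.2 and 1569 in litter 3, 1147 in litter 4, 869 in litter 5 and 1418 in litter 6. In tdTomato it was 877, 582 and 1028 in litter 3, then 785, 526 and 819. The iCreb5 library of litter 5 fell inside the tdTomato range, and within that litter it was still above its tdTomato partner. *Etv1* was 1.73-fold higher in iCreb5 (1321 ± 262 against 769 ± 187, log2 change 0.79 ± 0.18 SE, limma adjusted p 0.0132). It was called in 26 of 26 other settings, with an adjusted p of at most 0.0456. Its relatives did not pass: *Etv4* had means of 314 ± 51.8 and 283 ± 82.8, with a log2 change of 0.18 (95% interval -0.21 to 0.56). *Etv5* ranged from 1029 to 2671 (median 1705) against 1596 to 2532 (median 2194), with a log2 change of -0.26 (95% interval -0.68 to 0.15).

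**Figure D3:**
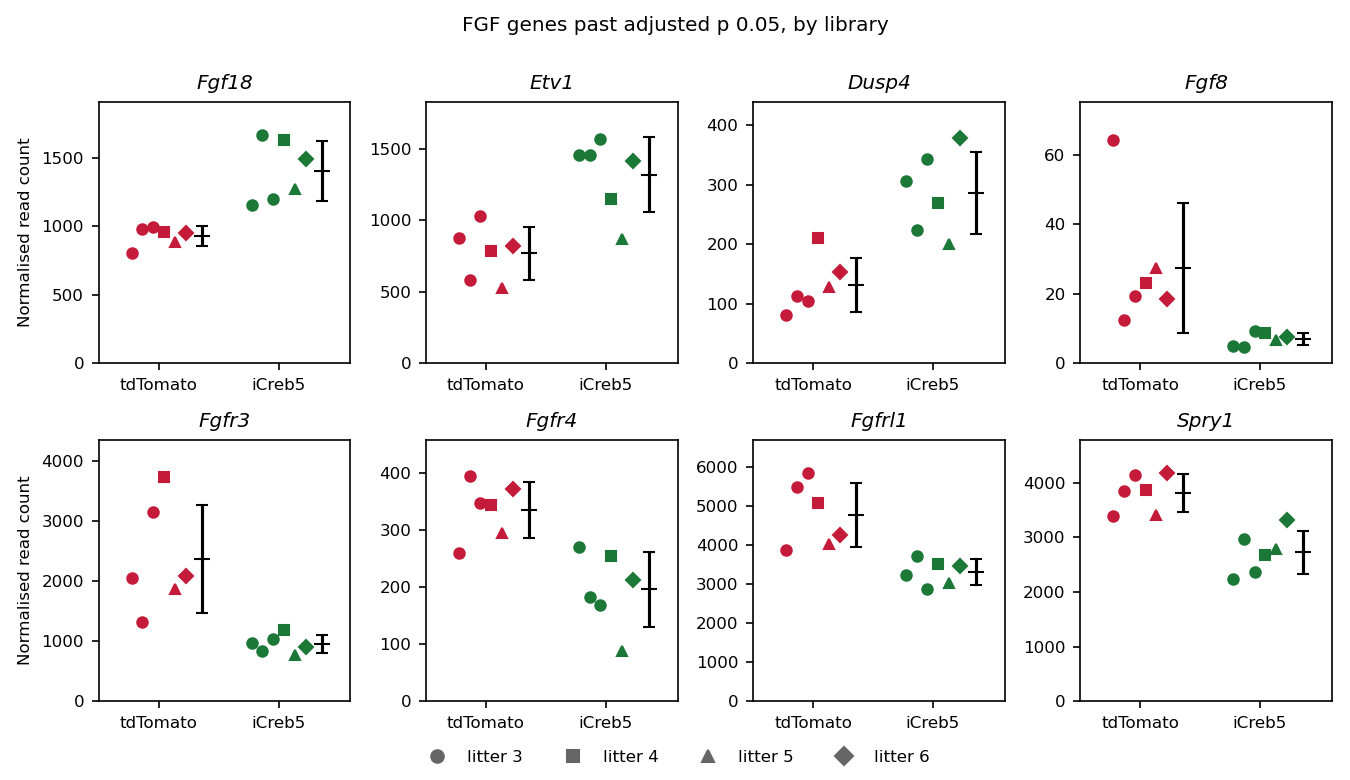
Normalised read count per library of the 8 FGF genes called in the fit, *Fgf8* only through the tdTomato libraries. Marker shape gives the litter, and black bars give mean and SD of 6 libraries. Groups do not overlap for *Fgf18*, *Fgf8*, *Fgfr3*, *Fgfrl1* and *Spry1*, and overlap for *Etv1*, *Dusp4* and *Fgfr4*.

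The membrane modulators did not pass the test. *Flrt2*, a leucine-rich transmembrane protein of mesenchyme, ranged from 3580 to 7879 in iCreb5 (median 5960) and from 2842 to 5176 in tdTomato (median 4203). Its log2 change was 0.55 (95% interval 0.16 to 0.94), positive in all 4 litters, from 0.33 to 0.68. *Flrt3*, a relative that binds FGF receptors, ranged from 1858 to 3805 (median 3135) against 2932 to 3956 (median 3443), with a log2 change of -0.26 (95% interval -0.58 to 0.07). *Il17rd*, also called Sef and an inhibitor of ERK signalling, had means of 431 ± 78.9 and 450.3 ± 135 and a log2 change of -0.02 (95% interval -0.44 to 0.39).

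**Figure D4:**
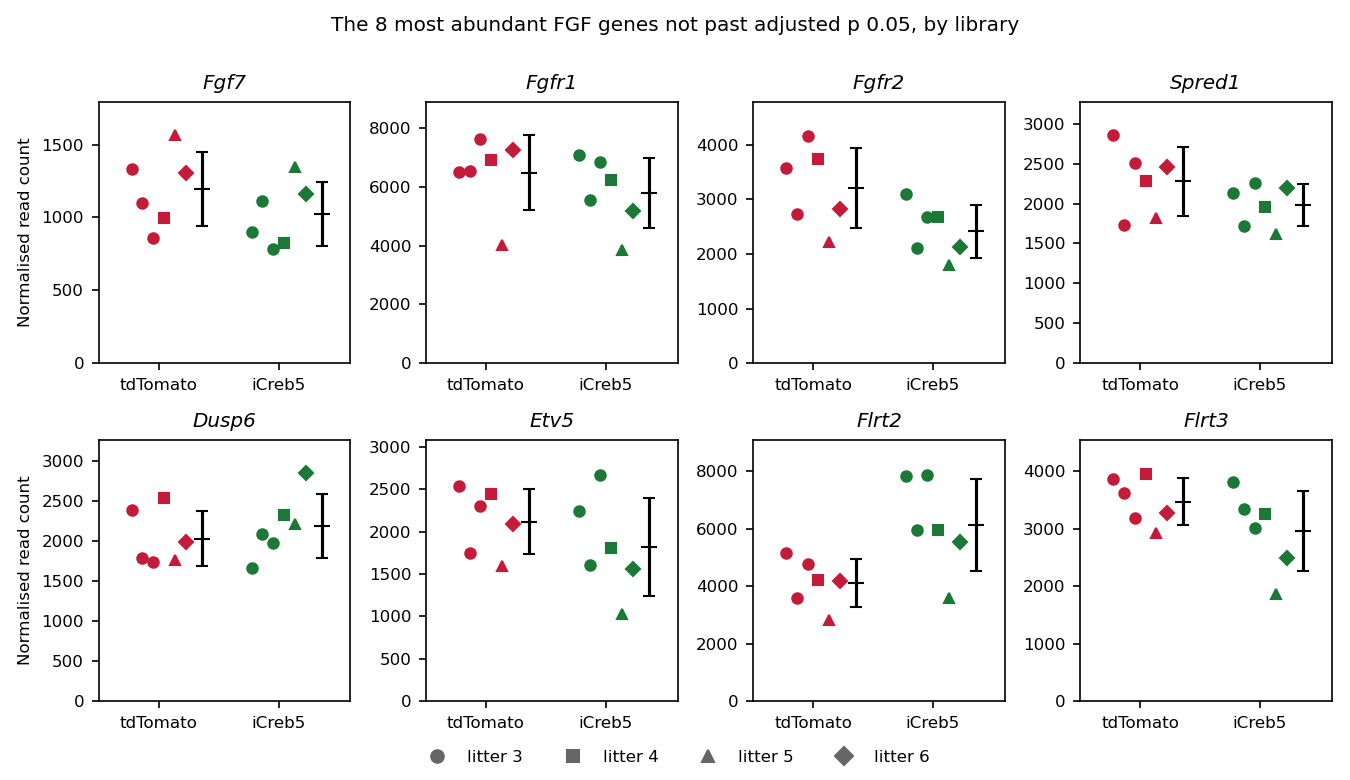
Normalised read count per library of the 8 most abundant FGF genes that did not pass the test, with litter by marker shape and mean and SD of 6 libraries as black bars. The ranges of the groups overlap in every panel, and *Flrt2* runs from 3580 to 7879 in iCreb5 and from 2842 to 5176 in tdTomato.

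Within litters, 12 of the members had the same negative sign in all 4 litters and 6 had the same positive sign. The share of all genes tested with such agreement was not computed, so these counts only describe the members. The 12 were *Fgf7*, *Fgf8* (tested only through the tdTomato libraries), the receptors *Fgfr1* to *Fgfr4*, *Fgfrl1*, *Spry1*, *Spry4*, *Spred1*, *Etv5* and *Flrt3*. The 6 were *Fgf10*, *Fgf18*, *Dusp4*, *Etv1*, *Etv4* and *Flrt2*. Litter 3 alone (3 against 3) called 2 members higher, *Dusp4* and *Etv1*, and 0 lower by limma, where 2.36% and 1.75% of all genes were called. Litters 4 to 6 alone (3 against 3, with litter as a term) called 2 higher, *Fgf18* and *Etv1*, and 1 lower, *Fgfr3*, where 1.91% and 2.2% of all genes were called. The fit of litter 3 alone had no litter term, so adjusted p-values of the sets come from unlike fits. *Fgfrl1* (adjusted p 0.0906 and 0.0882) and *Spry1* (0.0603 and 0.115) were called in neither set. A direct test of the difference between the 2 sets called 0 of 32 members and 0 of 16733 genes, with 1 member, *Spry2*, at an unadjusted p under 0.05 (p 0.0123, limma adjusted p 0.501). Litter 5 stood at the edge of both groups. For 8 of 32 members (25%) the lowest value of each group was there, against 14.3% of all genes tested. These 8 were *Fgf10*, *Fgfr1*, *Fgfr2*, *Spry4*, *Etv1*, *Etv5*, *Flrt2* and *Flrt3*. Over all genes tested, the iCreb5 library of litter 5 was the lowest of its group for 28.0% and the highest for 25.5%, and the tdTomato library for 26.6% and 28.8%. Among the 32 members, the iCreb5 library of litter 5 was the lowest for 14 and the highest for 3. The tdTomato library of litter 5 was the lowest for 9 and the highest for 4. In tdTomato, library 3b was the lowest for more members, 10 of 32 (31.25%, against 15.8% of all genes tested).

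**Figure D5:**
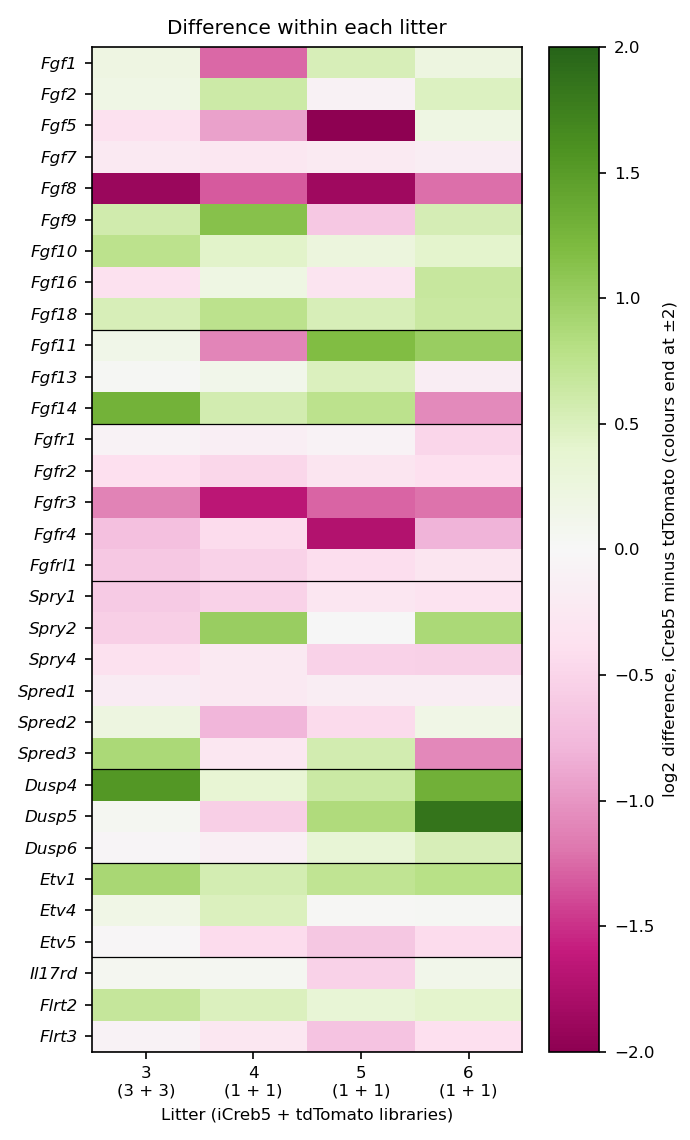
Difference iCreb5 minus tdTomato on the log2 scale within each litter, for the 32 FGF genes tested. Litter 3 is a difference of means of 3 libraries, the others of single libraries, and colours end at ±2. *Fgfr3* is negative in each column, from -1.66 to -1.12, and *Etv1* is positive in each, from 0.55 to 0.89.

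Promoters are shown for 4 of the called genes whose groups did not overlap: *Fgf18* as the ligand that rose, and *Fgfr3*, *Spry1* and *Fgfrl1* as receptor and feedback genes that fell. They come from RefSeq on GRCm38.p6, run 5′ to 3′ on the gene's strand within the 250 bases before the RefSeq start, and capitals mark a match to the ETS motif. The windows are chr11:33147401-33147650 (minus strand), chr5:33721474-33721673 (plus), chr3:37639697-37639946 (plus) and, as a 30-base stretch around the motif, chr5:108694170-108694199 (plus). The last lies inside the annotated span of *Fgfrl1*, past its outermost start.
Fgf18 promoter: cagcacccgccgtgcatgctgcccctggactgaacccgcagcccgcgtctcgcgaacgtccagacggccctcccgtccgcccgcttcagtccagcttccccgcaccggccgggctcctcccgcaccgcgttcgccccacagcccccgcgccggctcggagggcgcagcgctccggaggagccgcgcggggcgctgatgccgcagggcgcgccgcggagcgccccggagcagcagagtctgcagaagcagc
Fgfr3 promoter: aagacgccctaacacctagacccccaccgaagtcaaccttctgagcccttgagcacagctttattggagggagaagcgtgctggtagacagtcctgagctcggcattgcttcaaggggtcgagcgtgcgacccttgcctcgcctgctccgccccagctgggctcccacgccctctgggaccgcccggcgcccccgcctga
Spry1 promoter: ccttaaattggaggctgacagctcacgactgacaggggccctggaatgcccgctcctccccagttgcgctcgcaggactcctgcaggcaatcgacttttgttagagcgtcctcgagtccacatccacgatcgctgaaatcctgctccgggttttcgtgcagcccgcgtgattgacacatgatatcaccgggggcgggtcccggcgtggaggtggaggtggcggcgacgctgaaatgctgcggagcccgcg
Fgfrl1 promoter stretch: tcgcagattggCCGGAAGTtgtgcggggcg

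Of the 33 matched genes 25 had a promoter entry outside chromosome 18, and the members on that chromosome, *Fgf1* and *Spry4*, were not searched. Among the genes called in the fit, *Dusp4* and *Fgf8* had no promoter entry and were not searched either. The 250 bases before each start were searched on both strands, as were 32851 promoters in all, with no chromosome left out. The full CRE motif bound by CREB-family factors (TGACGTCA) was in 0 of 25 members and in 1.55% of all promoters. Its core TGACG, which the full motif contains, was in 4 of 25 (*Dusp5*, *Fgf2*, *Fgf9* and *Spred2*) and in 17.8% of all promoters, and none of these 4 genes passed the test. The AP-1 motif (TGACTCA or TGAGTCA) was in 0 of 25 and in 4.46% of all. The ETS motif (CCGGAAGT) was in 1 of 25, *Fgfrl1*, and in 2.88% of all. The RefSeq start used for *Fgfrl1* was not found near the start of a GENCODE transcript of that gene. A member counts where any of its promoter entries matched, while the shares of all promoters count single entries, so these measures differ. A match describes these letters only, and distal regions were not searched.

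Several members share exon bases with another gene, and whether counting used strand is not stated in the labels. *Fgfr3* overlaps *G630022F23Rik* on the opposite strand over 998 bases, and that gene had means of 3.37 in iCreb5 and 18.4 in tdTomato. *Spry1* overlaps *Gm42922* over 710 bases (28.1 and 26.3), both far below the level of their partners. *Fgf2* overlaps *Nudt6* over 640 bases on the opposite strand (90.6 and 102), and *Fgfr2* shares 314 bases with *Ctbp2* on the same strand (1557 and 1509). *Fgf20* shares 202 bases with *Micu3* on the opposite strand, whose means of 261 and 265 lie far above those of *Fgf20*, and *Dusp5* shares 547 bases with the antisense gene *AC137853.2*. Reads from such shared bases cannot be told apart, which makes the values of *Fgf2*, *Fgfr2*, *Fgf20* and *Dusp5* less certain.

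A wider list of 80 genes around the pathway was matched, 72 of them tested: 2 rose and 2 fell, 2.78% each way against 3.87% and 2.85% of all genes, and the median log2 change was -0.03. All 4 belonged to the 22 heparan sulfate genes, which make or carry the sugar chains that FGFs need to bind their receptors. *Hs3st1*, a heparan sulfate sulfotransferase, ran from 804 to 1119 in iCreb5 and from 433 to 627 in tdTomato, without overlap (log2 change 0.95, limma adjusted p 0.00018). *Hs6st2*, which adds 6-O-sulfate, had means of 2707 ± 263 and 2034 ± 248 (log2 change 0.42, limma adjusted p 0.0283). The carriers *Sdc2*, a syndecan, and *Gpc3*, a glypican, fell by 0.49 and 0.32 on the log2 scale (limma adjusted p 0.00497 and 0.0426), each without overlap. *Gpc3* remained abundant, with means of 54000 ± 4031 and 67413 ± 4400.5. None of the 24 adaptors and kinases between receptor and ERK passed the test. Neither did any of the 20 other phosphatases and early targets, such as *Egr1*, with means of 18466 ± 6107 in iCreb5 and 16059 ± 3912 in tdTomato. Of 14 further ligands, cofactors and binders 6 were tested and 0 called, with *Flrt1* nearest (log2 change -0.89, limma adjusted p 0.076).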

How the data were processed

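RNA sequencing of sorted E14.5 limb mesenchyme was analysed in 12 libraries, grouped and assigned to litters from the labels. Per the submitters' processing notes, the tools were FastQC, STAR, Salmon and DESeq2 and the build mm10, with no version or role given. The authors' deposited table holds normalised signal per gene: 100% of values were whole multiples of 1 unit per library within 1e-06, which gave back whole reads. A deposited P0 table, with 8 columns of no labelled sample, was not used. The FGF members, the other lists and the tests were chosen with earlier results of these data known.

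The comparison was made on log2(value + 1) by limma's moderated two-sided test with a mean-variance trend (limma 3.58.1, R 4.3.3). It covered the 16733 genes that reached 10 in 6 or more libraries, and Benjamini-Hochberg adjustment ran over all of them. The added 1 shrinks changes of weak genes. Folds are computed from the log2 changes and so rest on value + 1. The fit was tested on simulated data. Alternatives were pseudocounts of 0.5 and 5, other filters (none, or at least 50), equal totals, TMM, edgeR 4.0.16 and DESeq2 1.42.0 on the recovered reads, litter sets, and left-out libraries. The labels give libraries a shared litter, so litter also served as a replicate block; deviations from group means correlated between groups by 0.129, 0.154, 0.346 and 0.000309 in litters 3 to 6. Library values are given for each gene that passed adjusted p 0.05, and ranges for the other members, in full for the 8 most abundant in a plot. Symbols came from the name tables given for the table's Ensembl identifiers, exon lengths and coordinates from GENCODE vM21, and promoters from RefSeq (GRCm38.p6). *Flrt1*, *Egr1*, *Sp6* and the genes that share exons with members were named outside this rule after their values were seen.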

Additional observations from a re-analysis of the deposited data

Results flagged for a closer look

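Of 64 groups of 6 libraries tested (32 members in 2 groups), 5 had a library standing apart from the others by Dixon's criterion. Chance gives about 1 in 20 for normally distributed values. The criterion was applied to normalised counts without a log scale, and no share over all genes is given, so the 5 are a description. *Fgf5* was 68.9 in the iCreb5 library of litter 4, with the 5 others at 9.27 to 25.3. *Fgf8* was 64.2 in tdTomato 3a, the shallowest library, with the others at 12.4 to 27.4. *Etv4* was 444 in the same library, with the others at 206 to 282. *Fgfr1* was 4026 in the tdTomato library of litter 5, with the others at 6511 to 7624. *Spred2* was 113 in tdTomato 3b, the deepest library, with the others at 204 to 246. Depth and these values were not tested for a relation.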

How the results depend on the processing

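The counts of 3 members higher and 5 lower (*Fgf8* included) were set beside 26 other settings. Members lower numbered 3 with no filter on low values, where 31146 genes were tested, 0 in litter 3 alone and 1 in litters 4 to 6 alone, each with 3 libraries a group. Of the litter sets, only litters 4 to 6 were fitted with litter as a term. Over all genes tested, 648 were higher and 477 lower, while litter 3 alone gave 395 and 292, litters 4 to 6 alone 320 and 368, and the replicate block 859 and 728. With no filter 556 were higher and 380 lower. Members higher numbered 5 with DESeq2 (6 lower), 5 with the replicate block (6 lower), and 6 without the iCreb5 libraries of litters 5 and 6. Of all 16733 genes, DESeq2 called 922 higher and 715 lower. Without those 2 iCreb5 libraries 646 genes were higher and 498 lower. Leaving out each library in turn gave 3 to 6 higher and 4 to 6 lower, with 484 to 705 of all genes higher and 369 to 511 lower. The cause of these shifts was not tested beyond the number of genes or libraries. The log2 changes of the 8 called members kept their sign in every setting that tested them, and *Fgf8* was not tested with the filter of at least 50. *Fgf18* was lost in litter 3 alone (limma adjusted p 0.152), and so was *Fgfr3* (0.0555). *Dusp4* was lost in litters 4 to 6 alone, and *Fgfrl1* and *Spry1* in each litter set. *Fgfr4* was lost in 12 settings, *Fgf8* in 5 and *Etv1* in 0. The block gained *Fgf10*, *Flrt2* and *Spry4* and changed no other call, while with litter 3 averaged *Fgf10* and *Spry4* were not called, *Fgf8* was lost, and *Flrt2* and *Fgfr2* were gained.

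Uncalled members near 0 changed sign. In litter 3 alone the log2 change was -0.037 for *Dusp6*, 0.066 for *Il17rd*, 0.22 for *Spred2* and -0.55 for *Spry2*. In litters 4 to 6 alone it was -0.17 for *Fgf1*, 0.18 for *Fgf16* and -0.26 for *Spred3*. With the replicate block and litter 3 averaged it was -0.073 for *Fgf1* and 0.043 for *Fgf16*. Without the iCreb5 libraries of litters 5 and 6 it was -0.11 for *Dusp5*, -0.0077 for *Dusp6*, -0.16 for *Fgf1*, -0.057 for *Fgf11*, 0.013 for *Fgfr1* and -0.012 for *Spry2*. Without tdTomato 3a and 5b it was 0.17 for *Il17rd* and 0.061 for *Spred2*, and with equal totals 0.043 for *Il17rd*. Leaving out each library in turn gave -0.29 to 0.20 for *Fgf1*, -0.22 to 0.030 for *Fgf16*, -0.16 to 0.095 for *Il17rd*, -0.24 to 0.033 for *Spred2* and -0.13 to 0.23 for *Spry2*. Depth limits the weakest members: *Fgf8* rested on 4 to 25 reads a library, *Fgf14* on 2 to 44 and *Fgf20* on 0 to 14.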
